A study of Mus musculus with 22 samples.

Results

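The genes described here encode the proteasome and the proteins that assemble and control it, followed in mouse NIH/3T3 fibroblasts after serum starvation. Members were all genes of the deposited table of normalized counts whose symbol begins with Psma, Psmb, Psmc, Psmd, Psme, Psmf or Psmg followed by a digit, leaving out the immunoproteasome subunits Psmb8, Psmb9 and Psmb10. The rule found 45 of the 11208 genes in the table, and it used no measured change. They comprised 7 alpha and 7 beta subunits of the 20S core, 6 ATPases (Psmc) and 11 other subunits (Psmd) of the 19S cap, 3 chaperones that assemble the base of the cap, 4 chaperones that assemble the core, and 6 activators or inhibitors. The last member, Psmc3ip, matched by name only: its product works in meiotic recombination and is no part of the proteasome, so it is counted but named apart.

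The proteasome degrades proteins that carry ubiquitin chains. In the 20S barrel, rings of alpha subunits gate the entry and rings of beta subunits enclose the active sites, which sit on the products of Psmb5, Psmb6 and Psmb7. The 19S cap binds and deubiquitinates the substrate, and its ATPase ring unfolds it and feeds it into the core. Subunits are made in matched amounts, and the transcription factor NRF1 (Nfe2l1) is known for raising their genes together when proteasome capacity falls short. In dividing cells the proteasome removes cyclins and cyclin-dependent kinase inhibitors.

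Polyadenylated RNA was sequenced from 22 libraries in 11 groups of 2. One NIH/3T3 line carried doxycycline-inducible E2F1, a transcription factor of cell cycle entry, and the other carried a doxycycline-inducible construct that the labels call EV. Both lines were held for 48 h in 0.25% serum, and every group, the 0 h controls included, had this starvation. The E2F1 line and the EV line were sampled at 0, 2, 6 and 12 h of 500 ng/ml doxycycline, and the EV line also at 2, 6 and 12 h of 10% serum, so that the serum and doxycycline courses of the EV line share the 0 h libraries. Neither the promoter, the species of the E2F1 insert nor whether a line is 1 clone or a pool is given, and nothing says that replicates were separate cultures, so p-values measure only the spread between these samples.

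Counts in the table total 34014608 to 46057140 per library, and the lowest mean of any gene is 99.59. All 8 fibroblast markers checked were in the table and none of 10 markers of epithelial, blood, endothelial and muscle cells was. Of these 8, none was called higher and 7 were called lower at 12 h of E2F1 (median log2 change -0.70), and 2 were higher and 4 lower at 12 h of serum (median -0.34). Among all genes, 31.8% were called higher and 29.7% lower at 12 h of E2F1, and 36.0% and 29.7% at 12 h of serum. The part of the marker changes in the members' results was not tested. E2f1 read 1703 and 1637 normalized counts at 0 h of the E2F1 course, 1535 and 1755 at 2 h, 3806 and 3602 at 6 h and 2683 and 2845 at 12 h. The E2F target Ccne1 went from 666 and 544 at 0 h to 9972 and 10090 at 12 h. The 2 h libraries stood apart. Of 7 genes at least 8 times as high in every E2F1 library of 0, 6 and 12 h as in every EV library of 0, 6 and 12 h of doxycycline, 6 exceeded all those EV libraries in EV cells given doxycycline for 2 h, and 5 in EV cells given serum for 2 h. The counts were 1 of 7 after 6 h of serum and 0 of 7 after 12 h of serum. The bar for these counts is the highest of those EV libraries, the 6 h ones included. Ddx3y, a Y-linked gene of this kind chosen after its values were seen, read 9 and 4 in the EV line at 0 h, 103 and 71 after 2 h of doxycycline and 132 and 170 after 2 h of serum, against 580 and 521 in the E2F1 line at 0 h. In the EV line Ddx3y also read 31 and 18 after 6 h of doxycycline and 9 and 4 after 12 h. After serum it read 48 and 35 at 6 h and 29 and 19 at 12 h. In the E2F1 line at 2 h, 5 of the 7 genes were below every other E2F1 library. The part of this in the results at 2 h, or at 6 and 12 h, was not tested. Results at 6 and 12 h are also given without the 2 h libraries.

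Before stimulation the members spanned a wide range of level. Per kilobase of transcript, the mean normalized count in the EV line at 0 h ran from 230 for the assembly chaperone Psmg3 to 5270 for the alpha subunit Psma7. The beta subunits Psmb4 (5070), Psmb1 (4950) and Psmb6 (4350) followed Psma7. Every one of the 31 core and cap subunits was at 1020 or above on this scale. All 7 assembly chaperones, the inhibitor Psmf1 (315), the activators Psme4 (687) and Psme2b (633), and Psmc3ip (252) were below that. Subunits were thus listed above chaperones throughout, and the activators Psme1 (1520), Psme2 (1900) and Psme3 (1050) lay among the subunits.

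**Figure D1:**
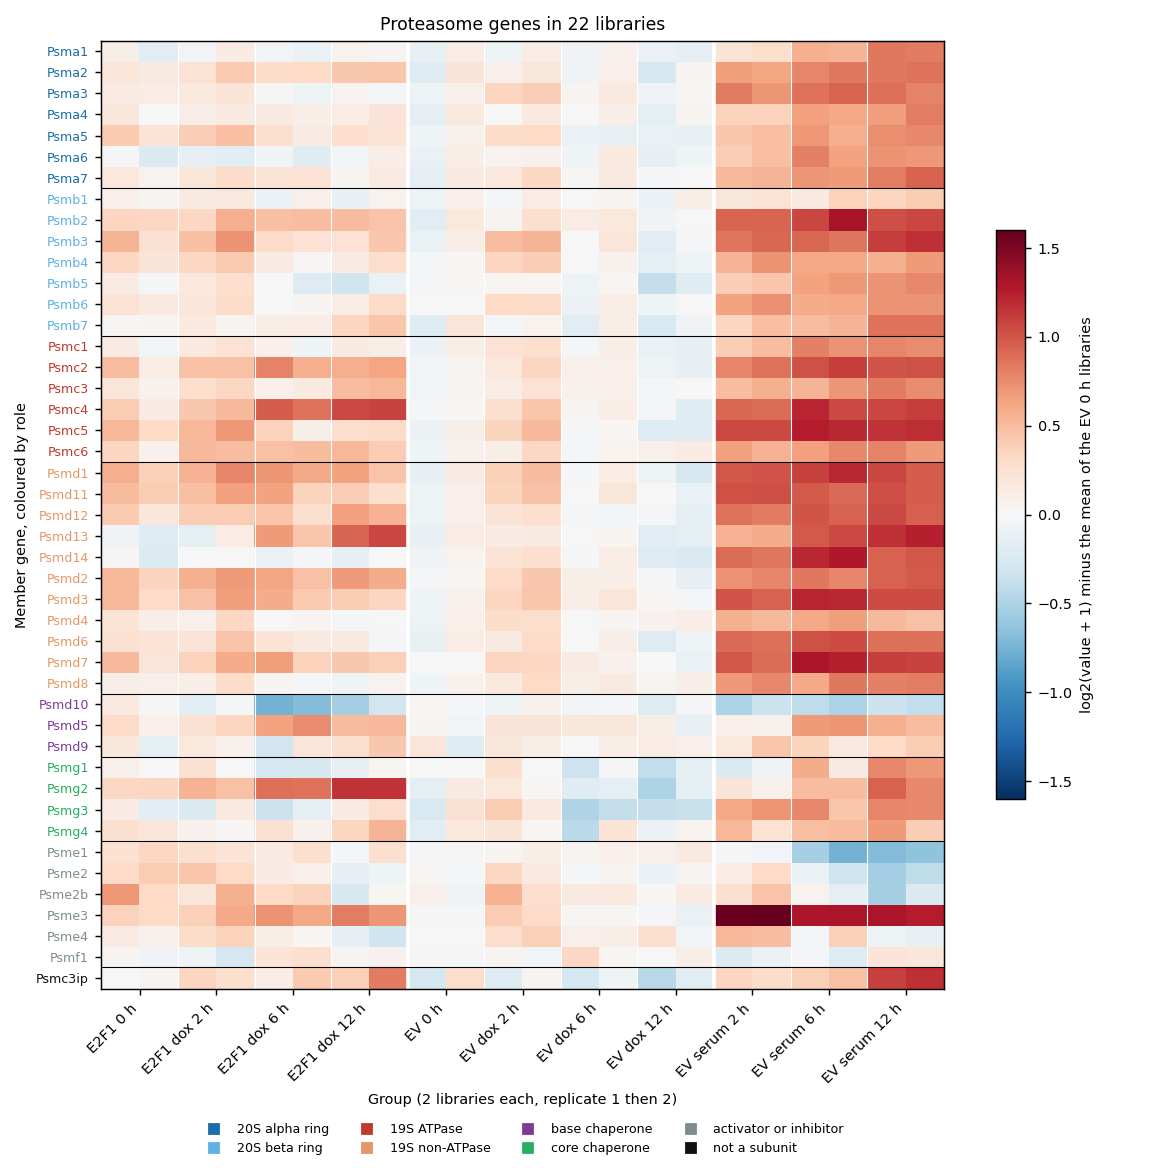
Each row is 1 of the 45 members and each column 1 of the 22 libraries. Colour gives log2(value + 1) minus the mean of the 2 EV libraries at 0 h, and gene names are coloured by role. The core and cap rows are red across the 6 serum libraries, while in the E2F1 line only single rows such as Psmc4, Psmd13 and Psmg2 darken from 0 h to 12 h.

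Serum raised the whole core and cap. Changes were tested with limma on log2(normalized count + 1), with Benjamini-Hochberg adjustment over all 11208 genes, and called at an adjusted p under 0.05. Of the 45 members, 33 rose and 1 fell at 2 h of serum, 37 rose and 2 fell at 6 h, and 39 rose and 3 fell at 12 h. Among all genes the share called higher was 37.5% at 2 h, 36.5% at 6 h and 36.0% at 12 h, and the share called lower was 33.5%, 31.0% and 29.7%. The median log2 change of the members was 0.55, 0.69 and 0.81, beside 0.03, 0.03 and 0.05 over all genes. In bulk RNA a change in RNA per cell cannot be told apart from a change in the mix of cells.

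Of the 31 core and cap subunits, 30 rose at 2 h and 31 at both 6 h and 12 h. The exception at 2 h was Psmb1 (log2 change 0.2, SE 0.09, adjusted p = 0.0562), a beta subunit without an active site. At 12 h Psmb1 ran from 0.18 to 0.46 over the alternatives and lost its call under some. The median log2 change of the cap subunits was above that of the core at each time. At 2 h it was 0.46 for the alpha ring, 0.63 for the beta ring, 0.72 for the ATPases and 0.87 for the other cap subunits. At 12 h the same medians were 0.84, 0.74, 0.90 and 1.00. This order between roles is a description and was not tested.

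**Figure D2:**
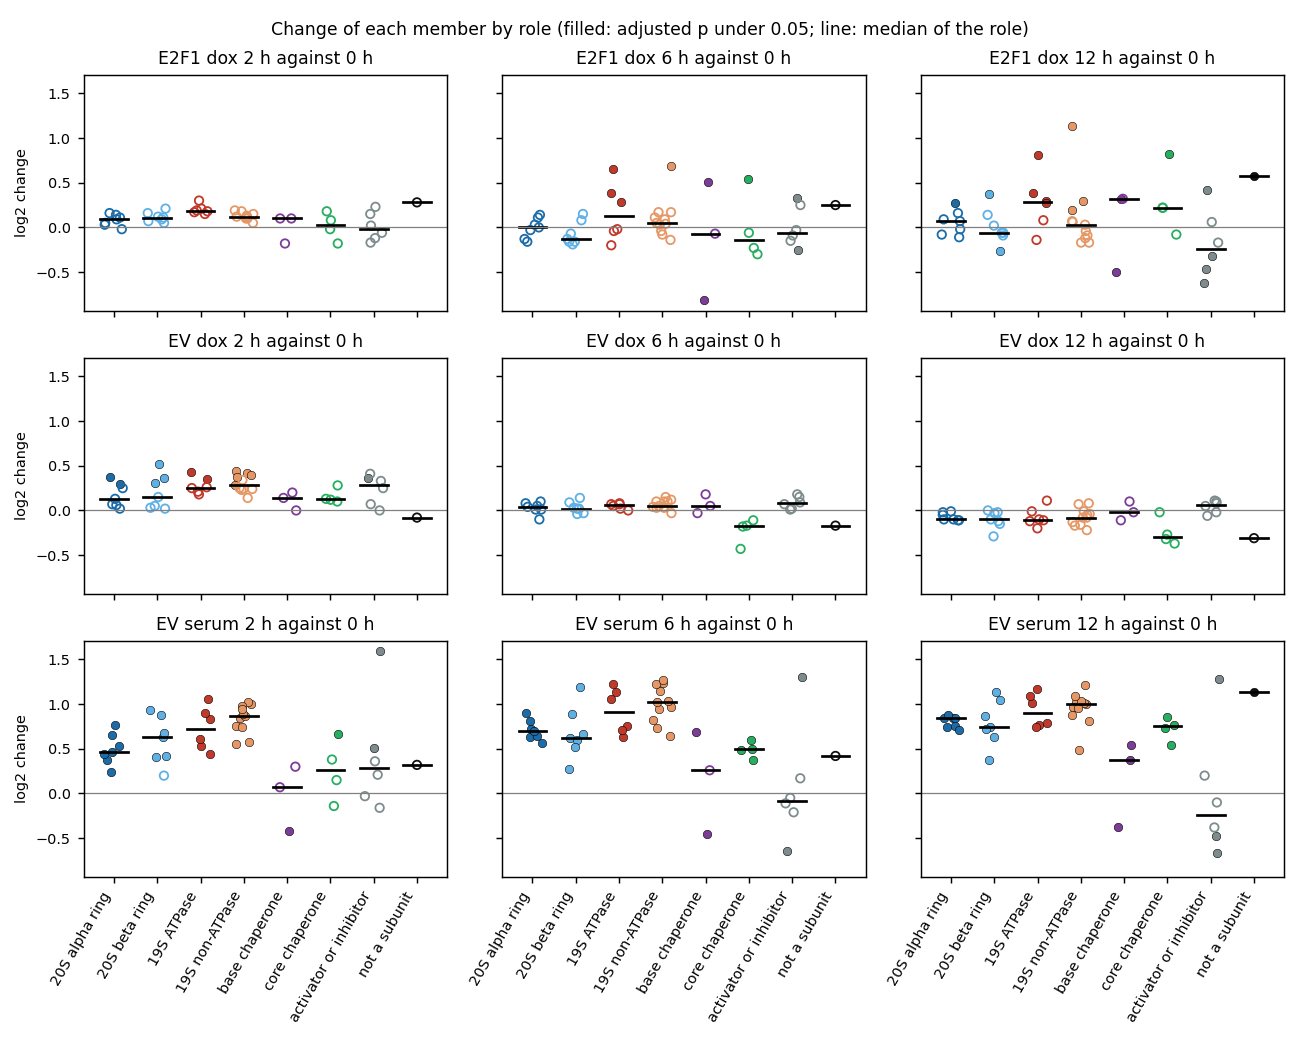
Points are members, placed by role, and the vertical axis is the log2 change from 0 h in the line and treatment named above each panel. Filled points passed the test at an adjusted p under 0.05 and bars mark the median of a role. In the serum panels the core and cap points lie above 0 with medians of 0.46 to 1.02, and in the E2F1 panels they scatter about 0 with a few called members above.

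The 3 subunits with active sites were each called higher at 2, 6 and 12 h of serum. Psmb5, which carries the chymotrypsin-like site, read 1253 and 1303 normalized counts in the EV line at 0 h, 1681 and 1732 at 2 h of serum, 2002 and 2068 at 6 h, and 2103 and 2175 at 12 h. Every serum library was above both 0 h libraries, and at 12 h the log2 change was 0.74 (SE 0.10, adjusted p = 3.68e-06). Psmb6, the caspase-like subunit, rose by 0.72 (SE 0.08) and Psmb7, the trypsin-like subunit, by 0.87 (SE 0.11) at the same time. At 2 h the log2 changes were 0.42 for Psmb5, 0.68 for Psmb6 and 0.41 for Psmb7. Over the alternatives in processing and libraries they ran from 0.04 to 0.45, 0.30 to 0.73 and 0.03 to 0.61. The 2 h calls of Psmb5 and Psmb7 were lost under some alternatives, while that of Psmb6 and all calls at 6 and 12 h held. After 12 h of doxycycline instead, the same line read 978 and 1116 for Psmb5, below both of its 0 h libraries, and this difference did not pass the test (log2 change -0.29, adjusted p = 0.121). Psmb5, Psmb6 and Psmb7 have annotated pseudogenes that could have taken part of their reads.

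Several cap genes rose about 2-fold or more. Psmd14, the deubiquitinase of the cap, read 1791 and 1920 at 0 h, 3448 and 3335 at 2 h, 4292 and 4501 at 6 h and 3572 and 3685 at 12 h of serum. Its highest point was at 6 h, where the log2 change was 1.24 (SE 0.08, adjusted p = 5.39e-10). Psmc5, an ATPase, rose by 1.06, 1.23 and 1.17 at 2, 6 and 12 h. The scaffold subunit Psmd7, which pairs with Psmd14, rose by 1.27 at 6 h, and Psmd11 by 1.02 at 2 h. At the low end, the ubiquitin receptor Psmd4 rose by 0.55, 0.64 and 0.49. Its 2 h value ran from 0.16 to 0.63 over the alternatives and lost its call under some. By mean level over the serum course, 24 of the 45 members were highest at 12 h, 13 at 6 h, 6 at 2 h and 2 at 0 h.

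Of the 4 core assembly chaperones, Psmg1 to Psmg4, 1 rose at 2 h of serum (Psmg3) and all 4 rose at 6 h and at 12 h. Under some alternatives in processing or libraries, Psmg1 and Psmg2 lost their calls at 6 h, and Psmg3 and Psmg4 theirs at 12 h. The calls of Psmg3 at 2 and 6 h and of Psmg4 at 6 h were not followed over the alternatives. The ranges were 0.15 to 0.59 for Psmg1 and 0.28 to 0.67 for Psmg2 at 6 h. At 12 h they were 0.53 to 1.14 for Psmg3 and 0.37 to 0.72 for Psmg4. Psmg4 changed by 0.38 at 2 h (adjusted p = 0.0745) and rose by 0.49 at 6 h. Psmg1 read 591 and 586 at 0 h, 503 and 568 at 2 h, 886 and 651 at 6 h and 1000 and 950 at 12 h of serum. Its 2 h libraries were below both 0 h libraries and its 12 h libraries well above them, with a log2 change of 0.73 at 12 h (SE 0.16, adjusted p = 0.000518). Psmg2, its partner in the heterodimer that starts the alpha ring, changed by 0.15 (adjusted p = 0.295) at 2 h and rose by 0.50 at 6 h and 0.86 at 12 h. Psmd5, a chaperone of the base, likewise changed by 0.07 (adjusted p = 0.438) at 2 h and rose by 0.69 at 6 h and 0.54 at 12 h. In all, 7 members (Psmb1, Psmd5, Psmd9, Psmg1, Psmg2, Psmg4 and Psmc3ip) were called higher at 6 or 12 h and not at 2 h. Whether their changes differ between the times was not tested.

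The activators split. Psme3, which encodes the nuclear activator PA28 gamma, had the largest rise of all members at each time. It read 2858 and 2762 at 0 h, 8387 and 8565 at 2 h, 6905 and 6926 at 6 h and 6942 and 6707 at 12 h of serum, so that all 6 serum libraries were above 2-fold. The change at 2 h was 3.02-fold (log2 1.59, SE 0.08, adjusted p = 4.02e-12). Psme1, one of the interferon-inducible PA28 pair, read 1672 and 1709 at 0 h and 1042 and 1084 at 12 h, and fell by 0.64 at 6 h and by 0.67 at 12 h (SE 0.10, adjusted p = 7.45e-06). Psme2, the other of the pair, fell by 0.48 at 12 h. Psme4, the activator PA200, rose by 0.51 at 2 h only, with changes of 0.17 (adjusted p = 0.176) and -0.10 (adjusted p = 0.432) later. The 2 h value of Psme4 ran from 0.10 to 0.54 over the alternatives and lost its call under some. Psmf1, which encodes the inhibitor PI31, passed the test at no time. Psmd10, a base chaperone also known as gankyrin, fell at all 3 times, by 0.42, 0.45 and 0.37. Its 12 h value ran from -0.57 to -0.25 over the alternatives and lost its call under some.

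The serum counts held with the 2 h libraries left out: 37 members rose and 2 fell at 6 h, and 38 rose and 4 fell at 12 h. Scaled to equal library totals, the 2 h result moved to 21 higher and 5 lower, while the median over all genes shifted to -0.345. On that scale 32 rose and 4 fell at 6 h. Of all 11208 genes, 2611 were called higher and 5907 lower at 2 h with equal totals, and 2914 and 4772 at 6 h. The summed counts of the members were 0.371% and 0.398% of the library total in the EV line at 0 h, 0.470% and 0.468% at 2 h of serum, 0.574% and 0.565% at 6 h, and 0.635% and 0.631% at 12 h. In EV cells given doxycycline for 2 h they were 0.460% and 0.468%, and in the E2F1 line at 0 h 0.486% and 0.437%. With EV doxycycline of the same time as the reference, 29 members rose and 1 fell at 2 h of serum. The median log2 change of the members at 2 h was then 0.38, and 3927 of all 11208 genes were called higher and 3596 lower. At 6 h and at 12 h, 38 members rose and 3 fell.

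Induction of E2F1 raised single members and left the core and cap near the level of 0 h. At 2 h no member passed the test in either direction with limma, where 0.865% of all genes were called higher and 0.99% lower, and 5 members were higher and 0 lower at an unadjusted p under 0.05. At 6 h, 7 members rose and 2 fell, with 28.8% of all genes called higher and 22.9% lower. At 12 h, 13 rose and 5 fell, with 31.8% called higher and 29.7% lower. The median log2 change of the members was -0.02 at 6 h and 0.06 at 12 h, beside -0.03 and -0.02 over all genes. On the deposited scale, a smaller share of the members than of all genes was called in each direction at both times. With quantile normalization the share called lower was larger among the members at 6 h and close to that of all genes at 12 h, as given below. The 2 times are set against the same 0 h libraries.

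Within the 31 core and cap subunits, 4 rose at 6 h, and 9 rose and 1 fell at 12 h. Of the 6 ATPases, 3 rose at 6 h (Psmc2, Psmc4 and Psmc6) and 4 at 12 h, when Psmc3 was added. Of the alpha subunits only Psma2 was called, at 12 h (0.27), and of the beta subunits Psmb7 rose (0.37) and Psmb5 fell by 0.26 at 12 h. Of the 11 other cap subunits, Psmd13 was called at 6 h, and Psmd13, Psmd12 (0.30) and Psmd2 (0.19) at 12 h.

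Psmd13 encodes a cap subunit near the deubiquitinase and lies at chr7:140881968-140898643 on the forward strand (mm10; ENSMUSG00000025487). In the E2F1 line it read 2335 and 2111 at 0 h, 2205 and 2638 at 2 h, 3905 and 3298 at 6 h and 4639 and 5117 at 12 h. All libraries of 6 and 12 h were above all of 0 and 2 h, and in the EV line under doxycycline it stayed between 2158 and 2694 over all 8 libraries. The log2 change was 0.69 at 6 h and 1.13 at 12 h (2.19-fold, SE 0.10, adjusted p = 2.71e-08). Serum raised the same gene by 1.02 at 6 h and 1.21 at 12 h. The start of Psmd13 overlaps that of Sirt3, which runs on the opposite strand. Whether the counting used strand is not given in the sources used here, so reads of the shared stretch cannot be told apart. In all, 21 of the 45 members overlap another annotated gene. Psmc3, Psmb7, Psmd5 and Psmc3ip, also called in the E2F1 line, are among those that overlap a gene on the opposite strand.

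Psmc4 encodes an ATPase of the cap (chr7:28041707-28050101, reverse strand; ENSMUSG00000030603). Its libraries read 4053 and 3343 at 0 h, 4140 and 4398 at 2 h, 6016 and 5585 at 6 h and 6372 and 6506 at 12 h in the E2F1 line. The late libraries were above all earlier ones, and the change was 0.65 at 6 h and 0.81 at 12 h (1.75-fold, SE 0.09, adjusted p = 6.65e-07). At 12 h of serum the EV line read 6455 and 6624, and its change was 1.09.

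Psmg2, the core chaperone (ENSMUSG00000024537), read 797 and 806 at 0 h, 938 and 879 at 2 h, 1172 and 1166 at 6 h and 1423 and 1414 at 12 h in the E2F1 line. Replicates lay close together and each time was above the one before, with a change of 0.54 at 6 h and 0.82 at 12 h (1.77-fold, SE 0.12, adjusted p = 1.37e-05). Its partner Psmg1 gave values of -0.3 and -0.08 that did not pass (adjusted p of 0.111 at 6 h, 0.665 at 12 h), and neither Psmg3 nor Psmg4 passed the test at 6 or 12 h. Psmd5 of the base chaperones rose by 0.51 at 6 h and 0.32 at 12 h.

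**Figure D3:**
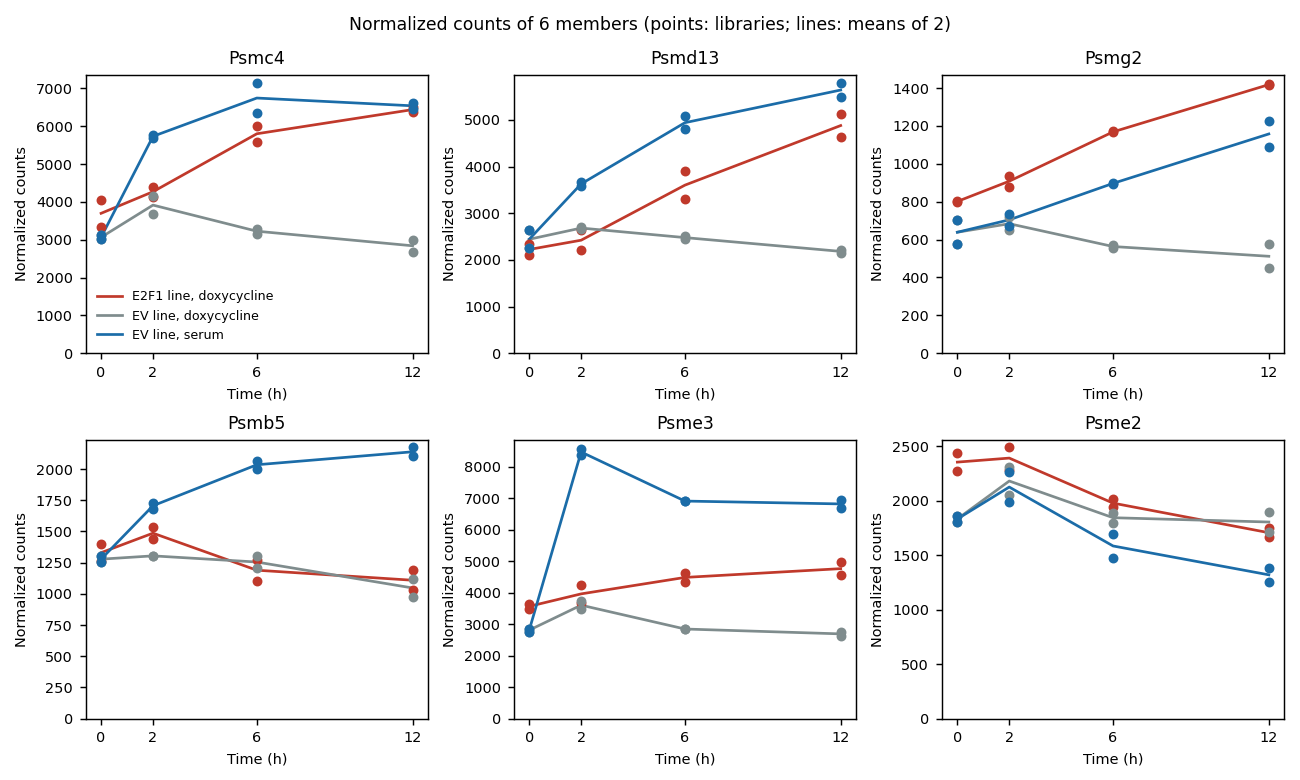
Normalized counts of 6 members against time in hours; points are libraries and lines join the means of 2. The serum course starts from the same 2 libraries of 0 h as the EV doxycycline course. Psmc4, Psmd13 and Psmg2 climb in both the E2F1 and the serum course, Psmb5 and Psme3 climb steeply under serum, and Psme2 ends lower in both.

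Among the activators, Psme3 rose in the E2F1 line by 0.33 at 6 h and 0.42 at 12 h, from 3636 and 3498 at 0 h to 4967 and 4566 at 12 h. Psme2 fell by 0.25 and 0.46, and Psme4 by 0.32 at 12 h. Psme2b, a close copy of Psme2 with which reads could have been split, fell by 0.62 at 12 h. Psmd10 read 867 and 786 at 0 h, 461 and 480 at 6 h and 535 and 635 at 12 h. Its libraries of 6 and 12 h were below all of 0 h, and it fell by 0.81 at 6 h (SE 0.12, adjusted p = 1.6e-05) and 0.50 at 12 h. Psmc3ip, the recombination factor, rose by 0.58 at 12 h.

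Some of these calls rested on the scaling or on single 0 h libraries. With quantile normalization 4 members rose and 18 fell at 6 h, and 6 rose and 17 fell at 12 h. The median over all genes shifted to -0.136 and -0.111. Of all 11208 genes, 2657 rose and 3820 fell at 6 h on that scale, and 3131 rose and 4122 fell at 12 h. The share called lower was then larger among the members than among all genes at 6 h, and the shares were close at 12 h. With trends of GC content and transcript length removed the member counts were 7 and 5 at 6 h, and 7 and 11 at 12 h. Over all genes they were 2823 and 3598 at 6 h, and 3265 and 4048 at 12 h. With equal totals 6 members rose and 11 fell at 6 h, against 2683 and 3781 of all genes. Members lie at shorter transcripts than other genes, with a median of 1430 bases against 3024. Without replicate 2 of the E2F1 line at 0 h, 7 members rose at 12 h, and without replicate 2 of 12 h, 8 did. Without replicate 1 of 0 h, 2 fell at 12 h, and without replicate 1 of 12 h, 3 did. At 6 h, 1 fell without replicate 1 of 0 h or without replicate 2 of 6 h. Over all alternatives, leave-one-out included, 7 of the 18 calls at 12 h held: Psmc3, Psmc4, Psmd13, Psmg2 and Psme3 higher, and Psmd10 and Psme2 lower. At 6 h, 5 of 9 held: Psmc4, Psmd13, Psmd5 and Psmg2 higher, and Psmd10 lower. With the 2 h libraries left out, 7 rose and 2 fell at 6 h, and 11 rose and 5 fell at 12 h.

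Doxycycline alone gave no called member in the EV line at 6 h or 12 h with limma, where 0.134% and 0.749% of all genes were called higher and 0.0% and 3.42% lower. At an unadjusted p under 0.05, 1 member was higher at 6 h and 3 were lower at 12 h. At 2 h, 13 members rose and none fell, with 4.93% of all genes called higher and 2.43% lower. The largest were Psmb3 (0.52), Psmd1 (0.44) and Psmc5 (0.43). These are the libraries in which genes of the E2F1 line were raised, as given above, and 15 of the 45 members stood higher, and none lower, in unstimulated E2F1 cells than in unstimulated EV cells (8.86% and 6.17% of all genes), led by Psme2b (0.50), Psmd1 (0.48) and Psmd11 (0.46). With the 2 h libraries left out, 12 members were higher in the E2F1 line. Both counts depended on single libraries. Without replicate 1 of the EV line at 0 h, 1 member rose after 2 h of doxycycline and 3 were higher in the E2F1 line at 0 h. Without replicate 2 of the EV line at 2 h of doxycycline, 1 rose, and without replicate 1 of the E2F1 line at 0 h, 1 was higher in that line. Between the 2 replicates of EV at 0 h, 35 of the 45 members were higher in replicate 2, and between those of E2F1 at 0 h, 5 were.

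The change in the E2F1 line was tested against that in the EV line under the same doxycycline, with the 0 h libraries of both lines in each difference. At 2 h no member passed with limma (0.0535% of all genes higher and 0.0892% lower), and 5 were lower and 0 higher at an unadjusted p under 0.05. At 6 h, 5 members changed more upward in the E2F1 line and 1 more downward (22.2% and 12.3% of all genes), and at 12 h, 10 and 3 (27.3% and 23.3%). Psmd13 had the largest difference at 12 h, 1.29 (SE 0.14, adjusted p = 7.25e-07), then Psmg2 with 1.15 and Psmc4 with 0.92. Among the 31 core and cap subunits, 6 were called higher at 12 h: Psmb7 (0.52), Psmc2 (0.41), Psmc3 (0.38), Psmc4, Psmd12 (0.39) and Psmd13. Psmb5 and Psmb6 differed by 0.03 (SE 0.14) and 0.05 (SE 0.11) and did not pass. Of the 3 called lower, all were activators: Psme2 (-0.44), Psme2b (-0.69) and Psme4 (-0.42).

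**Figure D4:**
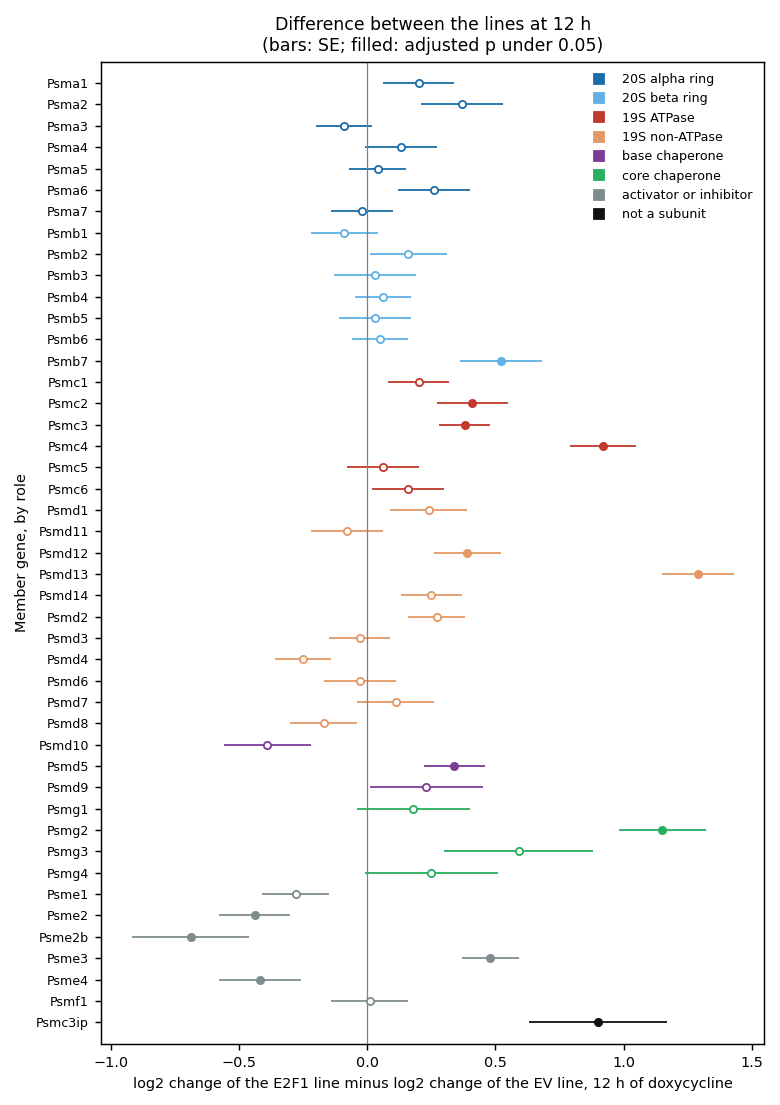
For each member the point gives the difference between the lines, E2F1 minus EV, in log2 change from 0 h to 12 h of doxycycline, and the bar its SE. Filled points passed the test at an adjusted p under 0.05. Psmd13 (1.29), Psmg2 (1.15) and Psmc4 (0.92) lie farthest right and Psme2b (-0.69) farthest left.

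Quantile normalization changed these counts to 3 up and 12 down at 6 h, then 5 up and 8 down at 12 h. Removing GC and length trends gave 3 up and 3 down at 6 h, then 6 up and 9 down at 12 h. Equal totals gave 3 and 4 at 6 h. Over all 11208 genes, quantile normalization called 2068 up and 2583 down at 6 h, and 2659 and 3457 at 12 h. With GC and length trends removed, the counts over all genes were 2185 and 2394 at 6 h, then 2760 and 3439 at 12 h. With equal totals they were 2101 and 2251 at 6 h. Without replicate 2 of the EV line at 0 h, 6 members were called higher at 12 h, and without replicate 1 of the E2F1 line at 0 h or replicate 2 of the EV line at 12 h, 1 was called lower. At 6 h, 3 were called higher without replicate 2 of the E2F1 line at 0 h, replicate 1 of the EV line at 0 h or either EV library of 6 h, and 2 lower without replicate 2 of the EV line at 0 h. With the 2 h libraries left out the counts were 4 up and 1 down at 6 h, then 10 up and 2 down at 12 h. Under every alternative Psmc4, Psmd13 and Psmg2 were called higher at both times, Psme3 at 12 h, and Psmd10 lower at 6 h.

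The E2F1 course was also set against the serum course of the EV line, which differ in both line and stimulus. At 2 h, 27 members changed less in the E2F1 line and none more (30.2% of all genes lower and 26.6% higher). At 6 h the counts were 33 and 2 (27.6% and 30.3%), and at 12 h, 31 and 1 (23.8% and 25.0%). Of the 31 core and cap subunits, 30 changed less at 6 h and 29 at 12 h, with medians of -0.78 and -0.75. Psmc5 had the largest deficit, -1.43 at 6 h and -1.31 at 12 h (SE 0.14, adjusted p = 5.7e-07), and Psmb3 followed at 12 h with -1.20. Both genes were called higher in the E2F1 line at 0 h, so their changes start from different levels. Psmc5 read 4015 and 3473 there against 2604 and 2973 in the EV line, and Psmb3 3721 and 3012 against 2372 and 2737. At 12 h Psmc5 read 3343 and 3451 against 6222 and 6293 under serum, and Psmb3 2988 and 3429 against 5481 and 5738. At 6 h Psmd13 was the 1 subunit that did not pass (-0.33, adjusted p = 0.0557), and at 12 h neither it (-0.08, SE 0.14, adjusted p = 0.681) nor Psmc4 (-0.29, SE 0.13, adjusted p = 0.0781) passed. Without replicate 1 of the EV line at 0 h the value of Psmd13 at 12 h was 0.04. Psme1, which serum lowered, was called higher in E2F1 by 0.55 at 6 h and 0.50 at 12 h. The other gene called higher at 6 h, Psmf1 (0.36), lost its call when any of 7 single libraries was left out. With the 2 h libraries left out, 32 members changed less and 1 more at 6 h, and 31 less and 1 more at 12 h. At 2 h equal totals gave 4 higher and 12 lower, and quantile normalization 2 and 15. Over all 11208 genes these counts were 4970 and 1966 with equal totals, and 3233 and 2736 with quantile normalization.

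**Figure D5:**
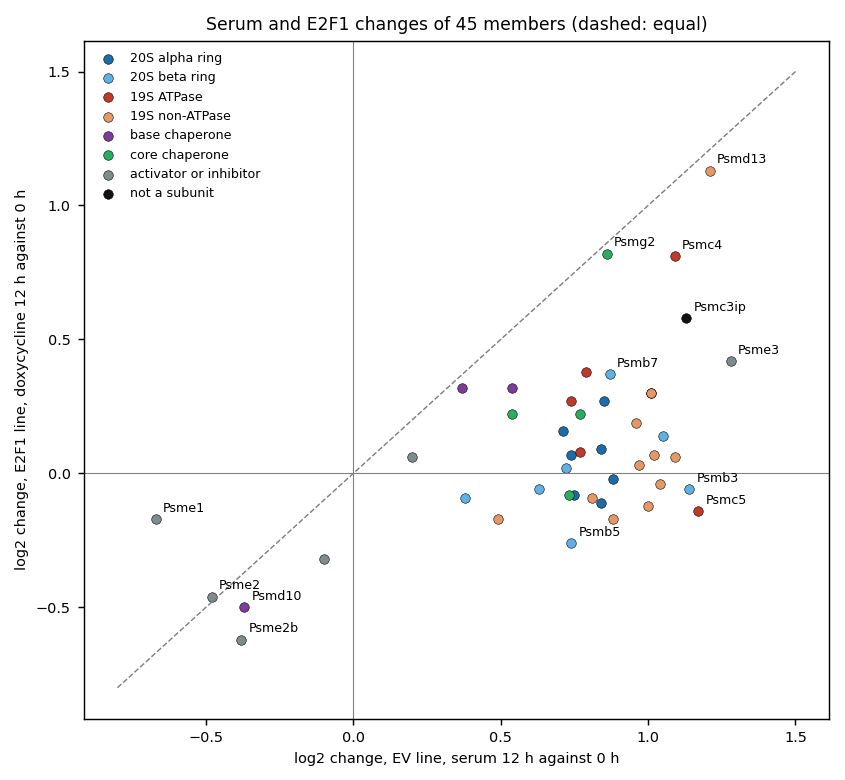
The horizontal axis is the log2 change of each member at 12 h of serum in the EV line and the vertical axis that at 12 h of doxycycline in the E2F1 line, with colour for role and a dashed line where both are equal. Most core and cap genes lie far below the line, while Psmd13 (1.21 and 1.13) and Psmg2 (0.86 and 0.82) lie close to it.

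Promoter sequence was read for 38 of the 45 members from RefSeq windows of 250 bases before to 50 bases after each annotated start (GRCm38.p6), on both strands. An E2F-type sequence (TTTCCCGC, TTTCGCGC, TTTGCCGC or TTTGGCGC) was found in 2 of the 38, Psmc4 and Psmc2, both called higher in the E2F1 line, and in 2.26% of all 32851 windows. The calls of Psmc2 were lost under some alternatives, with values of 0.14 to 0.57 at 6 h and 0.10 to 0.49 at 12 h. Here and below, a member counts once if any of its windows matches, while the share is over windows. Genes with several starts thus have more windows to match, and the 2 figures are not in the same unit. They are shown with the match in capitals. The Psmc4 stretch is chr7:28050093-28050212 on the reverse strand and ends at the base before the start. The Psmc2 stretch is chr5:21786750-21786779 on the forward strand, just past the second of its RefSeq starts, and holds the match in reverse complement. The Psmd13 stretch is chr7:140882274-140882395 on the forward strand, and its capitals mark the ETS-type sequence CCGGAAGT. It is shown because that gene rose most and no window read for it holds the E2F letters. The stretch lies past the GENCODE start of the gene given above.
Psmc4: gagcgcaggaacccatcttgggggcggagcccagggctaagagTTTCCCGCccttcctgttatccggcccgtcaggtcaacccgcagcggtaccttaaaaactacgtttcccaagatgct
Psmc2: caccagcggaaGCGGGAAAggtgctgtgta
Psmd13: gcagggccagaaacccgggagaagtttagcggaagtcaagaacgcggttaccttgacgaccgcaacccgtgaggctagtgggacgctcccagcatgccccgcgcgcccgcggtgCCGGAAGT
A match is a description of letters and not a binding site.

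The core letters of the antioxidant response element, TGACNNNGC, which NRF1 and NRF2 bind, were found in 6 of 38 members (Psmb5, Psmb6, Psmc6, Psmd12, Psmd9 and Psme4) and in 12.4% of all windows. Those of the active-site genes Psmb5 (chr14:54617996-54618075, reverse strand) and Psmb6 (chr11:70525277-70525356, forward strand) are shown with the match in capitals, as members that rose under serum and were not called higher in the E2F1 line. Psmc6 and Psmd12, which hold the same letters, were called higher there, Psmc6 at 6 and 12 h and Psmd12 at 12 h.
Psmb5: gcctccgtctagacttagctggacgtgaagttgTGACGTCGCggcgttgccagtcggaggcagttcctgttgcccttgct
Psmb6: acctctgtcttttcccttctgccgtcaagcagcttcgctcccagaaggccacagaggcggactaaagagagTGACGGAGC
CCGGAAGT was found in 9 of 38 members and 3.89% of all windows, and CCAAT, bound by NF-Y, in 13 of 38 and 37.4%. TTTGAA, the letters of the cell cycle homology region, stood in 3 of 38 (17.9% of all), CACGTG in 3 of 38 (7.15%), and the heat shock element in none (0.603%).

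Of 11 further proteasome factors in the table, 7 rose and 1 fell at 2 h of serum, where 37.5% of all genes were called higher and 33.5% lower. At 12 h of serum 8 rose and 2 fell, against 36.0% and 29.7% of all genes. In the E2F1 line 5 rose and 1 fell at 6 h, against 28.8% and 22.9%, and 3 rose and 2 fell at 12 h, against 31.8% and 29.7%. Pomp, the core maturation factor, rose by 0.65 and 0.84 at 2 and 12 h of serum and fell by 0.22 at 12 h in the E2F1 line. The cap-bound ubiquitin receptor Adrm1 rose by 1.28 and 0.92 under serum and by 0.52 at 6 h of E2F1, and the deubiquitinase Usp14 rose by 1.08 and 0.93 under serum. Uchl5, the other cap deubiquitinase, chosen after its values were seen, went from 627 and 470 in unstimulated E2F1 cells to 1761 and 1688 at 12 h. It rose by 1.67 there and by 1.68 at 12 h of serum. Of 8 shuttle and p97 genes, 7 rose and none fell at 12 h of serum, while E2F1 gave 4 rises and no fall at 6 h, then 4 rises and 1 fall at 12 h. The shares of all genes are those given for the 11 factors.

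Nfe2l1, the gene of NRF1, fell at 6 and 12 h of E2F1 and rose under serum. It read 10274 and 10316 at 0 h of the E2F1 course, 10913 and 11019 at 2 h, 7871 and 7878 at 6 h and 5611 and 5629 at 12 h. Replicates were close, and the 6 h libraries lay below those of 0 and 2 h and above those of 12 h. It fell by 0.87 at 12 h (SE 0.07, adjusted p = 3.47e-09), and the difference from the EV line was -1.14. Under serum it rose by 0.68, 0.48 and 0.25 at 2, 6 and 12 h. With EV doxycycline at 12 h as the reference, the last value was -0.02, and with quantile normalization none of the 3 serum values passed. Nfe2l2, the gene of NRF2, passed in neither course at any time.

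The immunoproteasome subunits left out of the rule parted from each other. Psmb9 read 128 and 158 at 0 h of the E2F1 course, 740 and 812 at 6 h and 854 and 1118 at 12 h, and rose by 2.44 and 2.77. Psmb10, which was higher in the E2F1 line at 0 h, went from 844 and 815 to 373 and 464 at 12 h and fell by 0.99. In the EV line no library was above 115 for Psmb9. Psmb9 is listed in the authors' deposited tables of genes that changed in the E2F1 line, at log2 2.48 for 6 h and 2.79 for 12 h, and none of the 45 members is in any of those 9 tables, whose entries all exceed an absolute log2 change of 2.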

How the data were processed

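Polyadenylated RNA of 22 NIH/3T3 libraries was sequenced as paired reads of 150 bases, per the labels' protocols. The submitters' processing notes list FastQC, Trimmomatic, HISAT2, featureCounts, DESeq2 and mm10; versions, settings and the use of strand are not given in the sources used here. The deposited table holds whole numbers for 11208 genes, per the file headers normalized counts, treated as a score because the authors scaled and rounded them, so no count test was run. The authors' deposited log2 fold changes and adjusted p-values (9 tables) were used for 1 statement on which genes they list. Groups came from the labels.

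Changes were tested with limma 3.58.1 (R 4.3.3) on log2(value + 1), with 1 mean per group over all 22 libraries (11 residual degrees of freedom), a trended prior and Benjamini-Hochberg adjustment over 11208 genes, at a threshold of 0.05. A fold change on this scale understates low genes. The filter of 10 in 2 libraries removed none. The code was tested on simulated data. Alternatives were a pseudocount of 8, no filter, equal totals, quantile normalization, removal of cubic trends (degree 3) of GC content and length, a replicate block, only the groups compared and leaving out each library. Leaving out the 2 h libraries and using EV doxycycline of the same time as the serum reference were added after seeing the data. Libraries total 34014608 to 46057140, but unscaled depth is unknown, so no counting interval is given.

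Replicate numbers were not used as pairs in the model, since the labels do not tie them to a shared culture or day. The closing section gives the fit with them as a block. Gene models are GENCODE M21 (45 of 45 member identifiers matched with version), and promoters are RefSeq. The members and lists were chosen with earlier results of these data known. Named genes were, for each comparison, the 3 largest rises and falls among called members whose libraries did not overlap, the active-site genes, a fixed set of members and related genes, E2f1 and Ccne1; further names serve counts of members or are marked as chosen after their values were seen.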

Additional observations from a re-analysis of the deposited data

Results flagged for a closer look

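The change over time differed between the E2F1 line and the EV line under the same doxycycline for 13 members at 12 h and 6 at 6 h (limma, test of the difference itself, adjusted p under 0.05 over all genes). At 6 h the change in the E2F1 line minus that in the EV line was 0.67 on the log2 scale for Psmd13, 0.72 for Psmg2, 0.58 for Psmc4, 0.32 for Psmd5, 0.31 for Psme3 and -0.78 for Psmd10. At 12 h it was 1.29 for Psmd13, 1.15 for Psmg2, 0.92 for Psmc4, 0.90 for Psmc3ip, 0.52 for Psmb7, 0.48 for Psme3, 0.41 for Psmc2, 0.39 for Psmd12, 0.38 for Psmc3 and 0.34 for Psmd5. The differences at 12 h were -0.44 for Psme2, -0.69 for Psme2b and -0.42 for Psme4. By the same test, 27.3% of all genes changed more upward in the E2F1 line by 12 h, and 23.3% more downward. For 6 h these shares of all genes were 22.2% upward and 12.3% downward. On the deposited scale the members thus passed less often than genes at large, in each direction and at both times. The groups have 2 libraries each, so no single library was examined as an outlier.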

How the results depend on the processing

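Counts of members called under serum at 6 and 12 h stayed within 1.5 times under all alternatives run, and Psmc4, Psmd13 and Psmg2 kept their calls in the E2F1 line at 6 and 12 h, except that the members called lower at 6 h of serum went from 2 to 4 with equal totals. Counts that moved by over 1.5 times were these. With trends of GC content and length removed, 1 member was higher at 2 h of E2F1, 5 were lower at 6 h, and at 12 h the counts were 7 up and 11 down. The line difference gave 3 up and 3 down at 6 h, then 6 up and 9 down at 12 h, and E2F1 minus serum 1 up at 6 h. With quantile normalization E2F1 gave 4 and 18 at 6 h and 6 and 17 at 12 h, serum 3 lower at 2 h, the line difference 3 and 12 at 6 h and 5 and 8 at 12 h, and E2F1 minus serum 2 and 15 at 2 h and 1 higher at 6 h. With equal totals E2F1 gave 11 lower at 6 h, serum 21 and 5 at 2 h and 4 lower at 6 h, the line difference 3 and 4 at 6 h and 6 lower at 12 h, and E2F1 minus serum 4 and 12 at 2 h. With the fit limited to the groups compared, 1 member was higher at 2 h of doxycycline in the EV line, 2 in the E2F1 line at 0 h, 3 in the line difference at 6 h and 1 in E2F1 minus serum at 6 h, the last also with the 2 h libraries left out. Counts over all genes moved as well and are given above for most of these scalings. The cause of these moves was not tested.

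Leaving out 1 library at a time, members called higher ranged from 5 to 8 at 6 h and 7 to 12 at 12 h of E2F1 and those lower from 1 to 3 and 2 to 5. They ranged from 1 to 12 at 2 h of EV doxycycline and 1 to 14 between lines at 0 h. For the line difference at 6 h the ranges were 3 to 7 up and 1 to 2 down, then 6 to 12 up and 1 to 4 down at 12 h, and for E2F1 minus serum 1 to 2 higher at 6 h. The reversed values were that of Psmd13 in E2F1 minus serum at 12 h (-0.08), which ran from -0.19 to 0.04 without 1 library, the latter without replicate 1 of the EV line at 0 h, and that of Nfe2l1 at 12 h of serum (0.25), which was -0.02 with EV doxycycline as the reference.

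Libraries with the same replicate number deviated together in some pairs of groups: the correlation of their deviations across genes was over 0.1 in 18 of 55 pairs, with a range of -0.277 to 0.455 and a median of 0.0314. Among 0, 6 and 12 h of doxycycline it was 0.303 to 0.455 within the EV line and 0.142 to 0.357 within the E2F1 line. With the replicate block, E2F1 gave 7 up and 3 down at 6 h, then 13 up and 5 down at 12 h, and there were 34, 38 and 38 higher at 2, 6 and 12 h of serum, 14 higher at 2 h of EV doxycycline and 14 between lines at 0 h, and no count moved by over 1.5 times. A group size of 2 and the unknown depth limit what small changes can show.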

Other observations

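Some members share their promoter region with a gene read in the other direction, and the pairs did not always move alike. Of the 45 members, 11 have such a neighbour within 1 kb by the annotation, and 9 of these neighbours are in the table. The neighbours were chosen after seeing the data. Cep76, a centriole gene that starts 263 bases from Psmg2, rose by 2.17 at 12 h in the E2F1 line (limma, adjusted p = 1.02e-08), where Psmg2 rose by 0.82. Dnajc2, a ribosome-associated chaperone gene 32 bases from Psmc2, rose by 1.14 at 12 h of E2F1 and by 1.73 at 12 h of serum, where Psmc2 rose by 0.30 and 1.01. Sirt3, whose start overlaps Psmd13, rose by 1.08 at 12 h of E2F1 and fell by 0.83 at 12 h of serum, where Psmd13 rose by 1.13 and 1.21. Tbp, the TATA-binding protein gene 137 bases from Psmb1, rose by 0.66 at 12 h of E2F1, where Psmb1 changed by -0.09 (adjusted p = 0.407).

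Ss18l1, 76 bases from Psma7, fell by 0.80 at 12 h of E2F1, where Psma7 changed by -0.02 (adjusted p = 0.844). Ftsj3, a ribosome biogenesis gene 75 bases from Psmc5, fell by 0.37 at 12 h of E2F1, where Psmc5 changed by -0.14 (adjusted p = 0.229). In all, 4 of the 9 neighbours rose and 2 fell at 12 h of E2F1, beside 31.8% and 29.7% of all genes. Whether a neighbour and its member share control was not tested.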
